A study of Homo sapiens with 6 samples.

Results

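NF-kB target genes and epithelial cytokines were examined as a set of 10 genes, 3 chemokines (CXCL1, CXCL8 and CCL2), 3 interleukins (IL32, IL18 and IL1A) and 4 genes of NF-kB control and cell survival (BIRC3, TNFAIP3, NFKBIA and NFKB2). They were taken by symbol from a table of 35544 loci, and each of the 10 stood on 1 row of its own. The cells were SiHa, an established line from a cervical squamous carcinoma with integrated papillomavirus. One group received a plasmid for the circular RNA hsa_circ_0005358 (here circ_0005358) and the other a vector plasmid, with 3 polyA RNA libraries each, collected 72 h after transfection in 6-well plates; the circular RNA, which has no polyA tail, was itself not analysed here. The study looked for mRNAs downstream of it. Replicates carry numbers only, with no word on whether each was its own culture; the p-values therefore reflect library-to-library spread, which may be technical.

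NF-kB is a family of dimeric transcription factors held in the cytoplasm by IkB proteins. Signals from receptors for TNF, IL-1 or microbial products activate the IkB kinases, IkB is degraded, and the freed dimers switch on chemokines, cytokines and survival genes together with their own inhibitors. In cervical epithelium these genes are part of the alarm that recruits immune cells.

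Values are FPKM, which divide the fragments of a locus by its transcript length and by the size of the library. On a transcript of 1 kb, 1 FPKM stood for about 16.3 fragments in circ_0005358 replicate 2 and 21.5 to 23.0 in the other 5 libraries (an estimate, since the table holds no counts). Vector replicate 3 listed 27803 loci above 0, against 23227 to 23834 in the other 5 libraries. Of the 8 epithelial markers 7 reached 1 FPKM in at least 1 library. Their sums, carried mostly by KRT7 and KRT17, were 618 to 696 FPKM in circ_0005358 libraries and 1269 to 1338 FPKM in vector libraries. Of the 7 tested 6 fell, beside 4.96% of all tested loci. CDH1 differed most, at means of 0.958 FPKM with circ_0005358 and 13.8 FPKM with vector, while KRT19 did not pass. With circ_0005358 CDH1 stood at 0.945, 0.883 and 1.05 FPKM. The vector group, where it was higher, thus met the filter for testing alone, and CDH1 is counted among the 6. The basal keratin KRT5 lay at or below 0.0414 FPKM. Of 7 leukocyte markers with a row of their own only CD14 reached 1 FPKM, at 1.33, 14.5 and 16.2 FPKM in circ_0005358 replicates 1 to 3 and at 13.2, 10.4 and 10.5 FPKM in vector replicates 1 to 3, while PTPRC stayed at or below 0.0605 FPKM. CD68 shares its row with SENP3, EIF4A1 and other names, so no level of its own could be read. The leukocyte sums, without CD68, were 1.57 to 16.4 FPKM with circ_0005358 and 10.9 to 13.8 FPKM with vector. Of 5 fibroblast markers only LUM reached 1 FPKM, with sums of 2.65 to 3.11 FPKM with circ_0005358 and 7.05 to 10.5 FPKM with vector, carried by LUM. COL1A1 was lower in every circ_0005358 library than in any vector library, while COL3A1, PDGFRB and DCN were higher in every one, at means of 0.821, 0.225 and 0.205 FPKM with circ_0005358 and 0.109, 0.0949 and 0.156 FPKM with vector. The 3 endothelial markers summed to 0.335 to 0.371 FPKM with circ_0005358 and 0.253 to 0.599 FPKM with vector. The part of these differences in the results below was not tested.

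Promoter sequence is shown first because the set is defined by a transcription factor. The 10-base kB consensus, the site to which NF-kB dimers bind, was searched by its standard degenerate form on both strands from 250 bases before to 50 bases after each start in RefSeq (GRCh38.p14). Of the 10 genes, 8 had an entry, and CCL2 and IL18 had none. The consensus was found at 1 or more starts of 6 of these 8 (CXCL1, IL32, BIRC3, TNFAIP3, NFKBIA and NFKB2) and, likewise at any start, in 13.3% of 27305 genes; of 35116 single promoters 11.3% held it. Stretches from -210 to -31 relative to the start are given for the 6, with the matches in capitals; 3 of these genes fell and 3 did not pass the test. Where matches on both strands overlap, the capitals run together. The start shown for IL32 is the first of 2 in RefSeq and that for NFKB2 the second of 3. Start 2 of IL32 and start 1 of NFKB2 held 0 matches, and start 3 of NFKB2 held 3, counted on both strands.
IL32, chr16:3065193-3065372, plus strand: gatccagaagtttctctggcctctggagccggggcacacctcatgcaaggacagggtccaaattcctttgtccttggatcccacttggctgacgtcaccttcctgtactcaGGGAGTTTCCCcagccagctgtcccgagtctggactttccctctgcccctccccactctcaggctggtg
BIRC3, chr11:102317274-102317453, plus strand: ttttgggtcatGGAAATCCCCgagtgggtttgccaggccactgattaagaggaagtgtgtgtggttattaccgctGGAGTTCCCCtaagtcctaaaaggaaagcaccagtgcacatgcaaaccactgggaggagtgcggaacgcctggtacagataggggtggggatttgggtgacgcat
CXCL1, chr4:73869183-73869362, plus strand: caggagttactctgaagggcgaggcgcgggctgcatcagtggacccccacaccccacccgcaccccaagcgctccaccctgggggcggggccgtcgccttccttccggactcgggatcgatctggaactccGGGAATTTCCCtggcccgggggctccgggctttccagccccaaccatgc
TNFAIP3, chr6:137867049-137867228, plus strand: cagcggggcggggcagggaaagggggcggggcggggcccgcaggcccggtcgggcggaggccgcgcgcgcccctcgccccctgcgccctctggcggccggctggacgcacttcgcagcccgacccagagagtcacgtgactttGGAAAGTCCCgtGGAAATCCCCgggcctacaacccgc
NFKBIA, chr14:35404780-35404959, minus strand: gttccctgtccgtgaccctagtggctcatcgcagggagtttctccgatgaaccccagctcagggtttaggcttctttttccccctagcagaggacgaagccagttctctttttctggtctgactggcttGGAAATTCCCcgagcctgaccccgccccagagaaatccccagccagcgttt
NFKB2, chr10:102394368-102394547, plus strand: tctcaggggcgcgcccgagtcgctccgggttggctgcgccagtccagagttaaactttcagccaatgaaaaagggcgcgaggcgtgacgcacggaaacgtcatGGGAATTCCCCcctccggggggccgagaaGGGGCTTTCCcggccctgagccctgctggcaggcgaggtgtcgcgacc

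The AP-1 site TGACTCA, another common element of cytokine promoters, was found on either strand in CXCL8 and IL1A, which lacked the kB consensus in this window, and, counted per single promoter rather than per gene, in 4.95% of all promoters. As neither CXCL8 nor IL1A held a kB match, no overlap was possible in them. Across the 7054 tested genes with a promoter entry, 17.3% held the kB consensus. Of those with it 4.66% fell and 9.08% rose, against 4.82% that fell and 6.14% that rose of those without it. A match is a description of letters and not a bound site, and kB sites that depart from the consensus were not searched.

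Among the 10 genes, IL32, BIRC3, IL18 and CXCL1 fell with circ_0005358 and none rose. IL32 and BIRC3 fell most, to 0.182 and 0.252 of the vector mean, while NFKBIA and NFKB2 had means within 10% of vector. Tests used limma on log2(FPKM + 1) over 10295 loci with at least 1 FPKM in 3 libraries, p-values adjusted by Benjamini-Hochberg and called under 0.05. Of the 10 genes 7 were tested, and CXCL8, CCL2 and IL1A lay below the filter. BIRC3 reached 1 FPKM in only 1 circ_0005358 library, and the vector group, where it was higher, met the filter alone. It is counted among the 7 in the shares and the median below. Over all tested loci 4.96% fell and 6.41% rose, that is 660 higher and 511 lower. This split turned on rescaling to the same FPKM sum (531 higher, 567 lower) and by the median ratio (566 higher, 578 lower). The median log2 fold change of the 7 was -0.45, beside 0.02 over all tested loci. In 7 of the 10 genes every circ_0005358 library lay below every vector library, and in 1, NFKB2, every one lay above. Among the 7 tested genes 6 did not overlap, beside 35.8% of all tested loci, 15.9% lower and 19.8% higher; CCL2 and IL1A are outside that share. In these bulk libraries fewer expressing cells and less RNA per cell cannot be told apart.

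**Figure D1:**
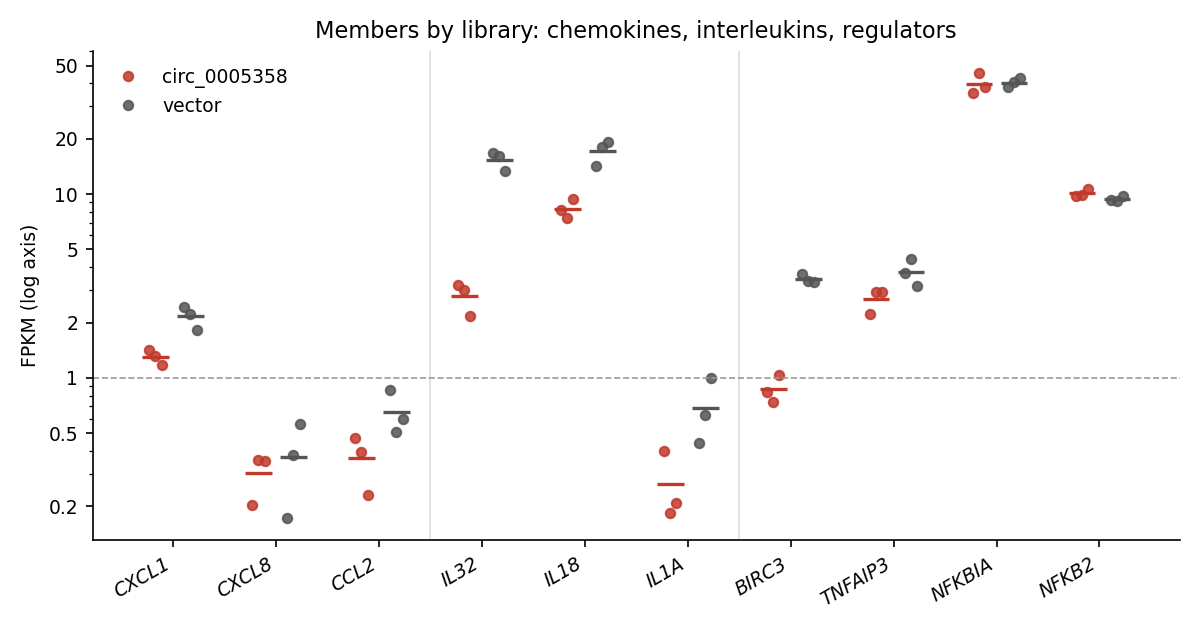
FPKM of the 10 genes on a log axis, with circ_0005358 (red) left of vector (grey); points are libraries, replicates 1 to 3 from left to right, bars are means (n = 3) and the dashed line marks 1 FPKM. IL32 averaged 2.80 FPKM with circ_0005358 and 15.3 FPKM with vector, while the NFKBIA points overlap around 40 FPKM.

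The chemokines were low in this line. CXCL1, a neutrophil attractant that signals through CXCR2, stood at 1.42, 1.31 and 1.18 FPKM in circ_0005358 replicates 1 to 3, and at 2.43, 2.24 and 1.82 FPKM in vector replicates 1 to 3. All 3 circ_0005358 libraries were below all 3 vector libraries. The means were 1.30 ± 0.119 FPKM with circ_0005358 and 2.16 ± 0.314 FPKM with vector (SD, n = 3 each), and the log2 fold change was -0.45 ± 0.097 (SE; limma adjusted p = 0.0417). This call is the weakest of the 4. It was lost without circ_0005358 replicates 1, 2 or 3 (adjusted p = 0.0826, 0.103 and 0.123) and without vector replicates 1 or 2 (0.116 and 0.135), but not without vector replicate 3 (0.0399). It was also lost with no filter on low values (0.135) and with quantile normalization (0.0623), and over all alternatives the adjusted p ran from 0.0316 to 0.135.

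CXCL8, which encodes interleukin-8 and shares the receptor CXCR2, stood at 0.204, 0.359 and 0.353 FPKM with circ_0005358 and at 0.174, 0.381 and 0.564 FPKM with vector. The groups overlapped (exact two-sided permutation p = 0.7), and the highest value was that of vector replicate 3. CCL2, which attracts monocytes through CCR2, stood at 0.468, 0.397 and 0.231 FPKM with circ_0005358 and at 0.862, 0.507 and 0.594 FPKM with vector. Its circ_0005358 libraries all lay below its vector libraries (exact two-sided permutation p = 0.1, the smallest that 3 against 3 allows). Neither gene entered the limma test.

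CXCL1 and CXCL8 lie in the same chemokine cluster on chromosome 4, at 73869393 to 73871242 and 73740506 to 73743716 on the plus strand (GENCODE 29, GRCh38). The 3 tested loci next to CXCL1 on its far side were EPGN, EREG and AREG, which encode EGF family ligands, and all 3 fell. EREG averaged 5.86 FPKM with circ_0005358 and 28.6 FPKM with vector (log2 fold change -2.12, limma adjusted p = 0.00095). Over the 50 tested loci nearest to CXCL1 the median was -0.19 on the log2 scale, and 10 of them changed. Of a list of 18 chemokines, only CXCL1, CXCL16 and CCL28 were tested and CXCL1 alone fell; the other 15 included CXCL2 at 0.404 to 0.935 FPKM with circ_0005358 and 0.649 to 0.778 FPKM with vector.

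Among the interleukins IL32 differed most. IL32, an inflammatory cytokine that TNF induces and that has no known mouse counterpart, stood at 3.20, 3.02 and 2.17 FPKM with circ_0005358 and at 16.7, 16.0 and 13.3 FPKM with vector. The lowest vector library was above the highest circ_0005358 library by more than the range of either group. The means were 2.80 ± 0.55 FPKM with circ_0005358 and 15.3 ± 1.78 FPKM with vector (SD, n = 3 each), and the log2 fold change was -2.11 ± 0.142 (SE; limma adjusted p = 0.00122). Of all 10295 tested loci only 29, IL32 included, had a log2 fold change this low or lower. IL32 (ENSG00000008517) is annotated at chr16:3065297-3082192, plus strand. Over its 50 nearest tested loci the median log2 fold change was 0.02, and its flanking tested loci, THOC6 and ZNF205, had 0.30 and 0.01 and did not pass (limma adjusted p = 0.0615 and 0.958).

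IL18, which epithelial cells store as a precursor that caspase-1 cleaves, stood at 8.14, 7.37 and 9.37 FPKM with circ_0005358 and at 14.1, 18.0 and 19.2 FPKM with vector. The groups did not overlap. The means were 8.29 ± 1.01 FPKM with circ_0005358 and 17.1 ± 2.64 FPKM with vector (SD, n = 3 each), a ratio of 0.485, and the log2 fold change was -0.96 ± 0.14 (SE; limma adjusted p = 0.0136). The call was lost without circ_0005358 replicate 1 (adjusted p = 0.0511) and without vector replicate 2 (0.0609), within a range of 0.0114 to 0.116 over all alternatives. IL18 (ENSG00000150782) is annotated at chr11:112143251-112164117, minus strand, among 50 tested loci with a median of -0.08.

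IL1A, an alarmin held in epithelial cells and released on damage, stood at 0.399, 0.183 and 0.208 FPKM with circ_0005358 and at 0.442, 0.626 and 0.996 FPKM with vector. The groups did not overlap, by a small gap between circ_0005358 replicate 1 and vector replicate 1 (exact two-sided permutation p = 0.1). Its row holds 1 transcript of 2124 bases, on which these levels imply about 18.2, 6.4 and 9.9 fragments with circ_0005358 and 21.1, 30.6 and 48.3 fragments with vector. The highest value was again that of vector replicate 3.

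The 4 remaining genes belong to NF-kB control and survival. BIRC3 encodes cIAP2, a ubiquitin ligase that acts at the TNF receptor, restrains the non-canonical pathway and is itself an NF-kB target. It stood at 0.843, 0.74 and 1.04 FPKM with circ_0005358 and at 3.69, 3.36 and 3.34 FPKM with vector. The groups were far apart, and the circ_0005358 libraries lay on both sides of 1 FPKM. The means were 0.873 ± 0.15 FPKM with circ_0005358 and 3.46 ± 0.195 FPKM with vector (SD, n = 3 each), and the log2 fold change was -1.25 ± 0.083 (SE; limma adjusted p = 0.00117). BIRC3 (ENSG00000023445) is annotated at chr11:102317450-102339403, plus strand, just before its paralog BIRC2. BIRC2, which encodes cIAP1, averaged 24.2 FPKM with circ_0005358 and 25.4 FPKM with vector and did not pass (log2 fold change -0.03, adjusted p = 0.963), and the 50 nearest tested loci had a median of -0.09.

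TNFAIP3 encodes A20, a ubiquitin-editing enzyme that shuts NF-kB signalling off and is induced by it. It stood at 2.22, 2.94 and 2.93 FPKM with circ_0005358 and at 3.71, 4.42 and 3.18 FPKM with vector. The groups did not overlap, yet the gap between circ_0005358 replicates 2 and 3 and vector replicate 3 was small. The log2 fold change was -0.37, with a 95% interval of -0.70 to -0.03 before adjustment, and the test was not passed (limma adjusted p = 0.154).

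NFKBIA encodes IkB-alpha, the inhibitor that NF-kB itself induces. It stood at 35.7, 45.6 and 38.3 FPKM with circ_0005358 and at 38.1, 40.5 and 42.7 FPKM with vector, and the groups overlapped. The log2 fold change was -0.03, with a 95% interval of -0.29 to 0.23 (limma adjusted p = 0.902). NFKB2 encodes p100, the precursor of the p52 subunit of the non-canonical pathway. It stood at 9.80, 9.91 and 10.7 FPKM with circ_0005358 and at 9.33, 9.12 and 9.71 FPKM with vector. The groups stood apart by a small margin, with a log2 fold change of 0.10 and a 95% interval of -0.05 to 0.25 (limma adjusted p = 0.347).

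Of the genes not yet placed, CCL2 (ENSG00000108691) is annotated at chr17:34255218-34257203 and TNFAIP3 (ENSG00000118503) at chr6:137867188-137883312, both on the plus strand. NFKB2 (ENSG00000077150) is at chr10:102394110-102402529 on the plus strand, and IL1A (ENSG00000115008) at chr2:112773915-112784590 and NFKBIA (ENSG00000100906) at chr14:35401511-35404749 on the minus strand. The medians of the 50 nearest tested loci were -0.03 for CCL2, -0.07 for TNFAIP3, -0.01 for NFKB2, 0.19 for IL1A and 0.08 for NFKBIA. Over 191 windows of 50 tested loci, laid side by side along the genome and not around a gene, the medians ran from -0.35 to 0.33.

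The order of mean levels is given within each group. With circ_0005358 it ran NFKBIA, NFKB2, IL18, IL32, TNFAIP3, CXCL1, BIRC3, CCL2, CXCL8 and IL1A, with overlapping ranges for IL32 and TNFAIP3 and for the neighbours among CCL2, CXCL8 and IL1A. With vector it ran NFKBIA, IL18, IL32, NFKB2, TNFAIP3, BIRC3, CXCL1, IL1A, CCL2 and CXCL8, with overlapping ranges for IL18 and IL32, for TNFAIP3 and BIRC3, and for the neighbours among IL1A, CCL2 and CXCL8. These levels are per transcript length. The coefficient of variation between replicates was lowest for NFKB2, at 4.74% with circ_0005358 and 3.21% with vector, and between 28.3% and 52.4% in both groups for CXCL8, CCL2 and IL1A.

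**Figure D2:**
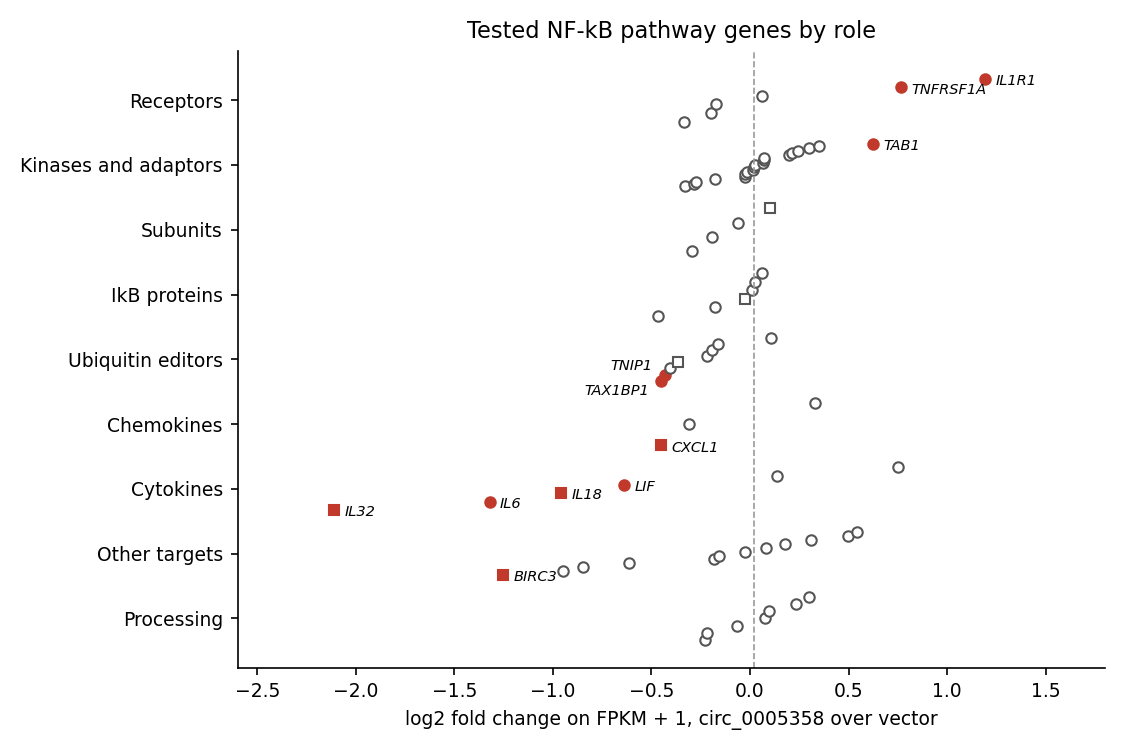
Log2 fold change on FPKM + 1, circ_0005358 over vector, of every tested gene of the NF-kB lists, by role from receptors to targets; filled points passed the limma threshold, squares are the 10-gene set, and the dashed line is the median of all tested loci (0.02). The filled points at the receptors and adaptors lie to the right and those at the ubiquitin editors, chemokines, cytokines and BIRC3 to the left. The medians of all tested genes were -0.05 for receptors and 0.02 for kinases and adaptors. They were -0.29 for ubiquitin editors, -0.31 for chemokines, -0.80 for cytokines and -0.09 for other targets, with the 10-gene set included. With that set left out they were -0.22 for ubiquitin editors, 0.01 for chemokines (2 genes), -0.25 for cytokines (4 genes) and -0.02 for other targets.

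The pathway was followed in lists of 134 genes, the 10-gene set included, of which 126 had a row of their own. Outside the 10-gene set 64 were tested, 3 rose and 4 fell. That is 10.9% changed, near the 11.4% of all tested loci, so the number is no result about the pathway. Their median log2 fold change was -0.02. The counts by list below include genes of the 10-gene set where a list holds them. They stand beside 4.96% that fell and 6.41% that rose over all tested loci.

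Of 6 tested receptors IL1R1 and TNFRSF1A rose and none fell. IL1R1, the signalling receptor for IL1A and IL1B, stood at 9.81, 9.70 and 9.93 FPKM with circ_0005358 and at 3.81, 3.69 and 3.71 FPKM with vector. The groups were far apart, and the log2 fold change was 1.19 ± 0.05 (SE; limma adjusted p = 0.000409). Its neighbour IL18R1, the binding chain of the IL18 receptor, lay below the filter at 0.643, 0.759 and 0.737 FPKM with circ_0005358 and 0.276, 0.287 and 0.301 FPKM with vector (exact permutation p = 0.1). Both sit on chromosome 2, where the nearest tested loci had a median of 0.18 on the log2 scale. TNFRSF1A, the main TNF receptor, averaged 34.6 ± 6.50 FPKM with circ_0005358 and 19.8 ± 2.87 FPKM with vector (SD, n = 3 each; log2 fold change 0.77, limma adjusted p = 0.0467). That call was lost without any 1 library except circ_0005358 replicate 1, with adjusted p up to 0.14 when 1 library was left out. It was also lost with no filter (0.122), on rescaling to the same FPKM sum (0.0522), with quantile normalization (0.0517) and with a replicate block (0.0702). The receptors of the chemokines in the set, CXCR1, CXCR2 and CCR2, were below the filter, with no library above 0.455 FPKM.

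Of 19 tested kinases and adaptors TAB1 alone rose and none fell. TAB1, which activates the kinase TAK1 upstream of the IkB kinases, averaged 4.85 ± 0.921 FPKM with circ_0005358 and 2.77 ± 0.291 FPKM with vector (SD, n = 3 each; log2 fold change 0.62, limma adjusted p = 0.0464). The call was lost on leaving out any of circ_0005358 replicates 1 or 3 or vector replicates 1, 2 or 3, with adjusted p of 0.101 to 0.136. It was also lost under each other scaling, namely the same FPKM sum (0.0534), the median ratio (0.0512) and quantile normalization (0.0541), with no filter (0.124) and with a replicate block (0.118). MAP3K14, the kinase NIK of the non-canonical pathway that BIRC3 restrains, averaged 2.73 FPKM with circ_0005358 and 3.69 FPKM with vector and missed the threshold (log2 fold change -0.33, limma adjusted p = 0.052). It passed as lower under 5 alternatives, the 3 other scalings, no variance trend and library weights (adjusted p = 0.0308 to 0.0487). For TRAF2, the adaptor that recruits BIRC3 and BIRC2, the log2 fold change was 0.35, also short of the threshold (limma adjusted p = 0.0674).

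None of the 4 tested subunits and none of the 6 tested IkB proteins passed the test. RELB, RELA and NFKB1 had log2 fold changes of -0.29, -0.06 and -0.19 (limma adjusted p = 0.0741, 0.852 and 0.0841), and REL lay below the filter. Among the IkB proteins, NFKBIE had the smallest p, with a log2 fold change of -0.47 (adjusted p = 0.161). Of 8 tested ubiquitin editors TNIP1 and TAX1BP1, which both work with A20, fell and none rose. TAX1BP1 stood at 21.1, 18.5 and 21.4 FPKM with circ_0005358 and at 27.0, 28.1 and 29.3 FPKM with vector (log2 fold change -0.45, limma adjusted p = 0.0194), and TNIP1 averaged 4.66 FPKM with circ_0005358 and 6.63 FPKM with vector (log2 fold change -0.43, adjusted p = 0.0339). Leaving out any 1 vector library ended the TAX1BP1 call (adjusted p = 0.0581, 0.074 and 0.0697), and leaving out any 1 of the 6 libraries ended that of TNIP1 (0.0526 to 0.114). With no filter both were lost (0.0563 for TAX1BP1 and 0.0936 for TNIP1), as they were with a replicate block (0.0912 and 0.0944).

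Of 6 tested cytokines IL32, IL18, IL6 and LIF fell and none rose. IL6, a cytokine of the acute phase, stood at 0.987, 1.51 and 1.74 FPKM with circ_0005358 and at 5.55, 4.61 and 4.79 FPKM with vector (log2 fold change -1.32, limma adjusted p = 0.0051). LIF, of the same family, averaged 1.66 FPKM with circ_0005358 and 3.14 FPKM with vector (log2 fold change -0.64, adjusted p = 0.00515). CSF1, the macrophage growth factor, averaged 5.53 ± 2.23 FPKM with circ_0005358 and 2.71 ± 0.186 FPKM with vector (SD, n = 3 each) and did not pass (log2 fold change 0.75, adjusted p = 0.154). IL1B, TNF and IL33 stayed at or below 0.244 FPKM in every library.

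Of 12 tested genes on the list of other NF-kB targets, which holds BIRC3, BIRC3 alone fell and none rose. PTGS2, which encodes cyclooxygenase-2, stood at 2.22, 1.86 and 1.79 FPKM with circ_0005358 and at 6.51, 5.53 and 2.78 FPKM with vector. It did not pass (log2 fold change -0.95, limma adjusted p = 0.0863) unless vector replicate 3 was left out (adjusted p = 0.0117). TNFAIP2, a target first found in TNF-treated endothelium, had the next smallest p, with a log2 fold change of 0.50, and did not pass (adjusted p = 0.194). Of 7 tested genes that process IL-1 and IL-18 or act beside them none changed, and CASP1, the protease that matures IL18, averaged 6.70 FPKM with circ_0005358 and 5.54 FPKM with vector (log2 fold change 0.24, adjusted p = 0.109).

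**Figure D3:**
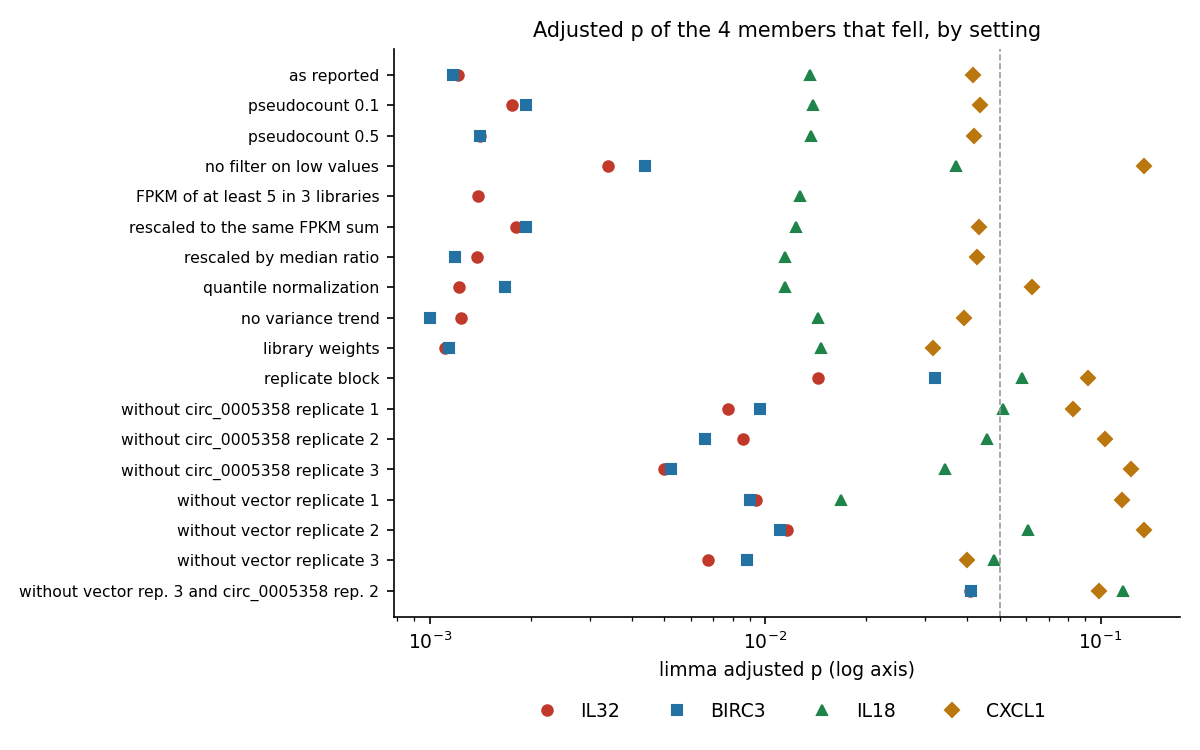
Limma adjusted p (log axis) of IL32, BIRC3, IL18 and CXCL1 under each processing setting; the dashed line marks 0.05. IL32 and BIRC3 stay left of the line wherever they were tested, BIRC3 not being tested at the filter of 5 FPKM, while CXCL1 crosses it in most settings that leave a library out.

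Transcripts of cytokines often carry AU-rich elements in the 3' UTR, which shorten the life of the mRNA. The heptamer TATTTAT was counted, overlaps included, in the longest 3' UTR among the coding transcripts of each row (GENCODE 29). CXCL1 and CXCL8 held 4 copies each, IL1A and BIRC3 3 each, TNFAIP3 and NFKBIA 2 each, and CCL2, IL18, IL32 and NFKB2 held none. Of 9564 tested loci with a coding transcript 36.3% held at least 1 copy and 7.03% at least 3. Genes that fell were thus found both with the heptamer (CXCL1, BIRC3) and without it (IL32, IL18). For the 3 cytokine genes with dense copies, the stretch of 30 bases with the most copies is given, with the copies in capitals.
CXCL1: ttaggagaagtcttcTATTTATTTATTTAT
CXCL8: tattaaccTATTTATTATTTATgTATTTAT
IL1A: tttttaattatTATTTATatatgTATTTAT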

How the data were processed

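The authors deposited 1 table of FPKM values per locus and library, per the file headers. Trimmomatic, HISAT2 and build hg19 are named, per the submitters' processing notes; for the FPKM step, program and annotation are not stated there. The table holds no read counts, so log-scale tests were used. Loci reaching 1 FPKM in 3 or more of the 6 libraries were tested with limma 3.58.1 in R 4.3.3 on log2(FPKM + 1), with its mean-variance trend on, two-sided tests and Benjamini-Hochberg adjustment. Fold changes on this scale understate the change of low genes. Depth was estimated from the smallest FPKM steps of 17982 single-transcript loci, and no counting interval was drawn. Exact permutation tests used scipy 1.17.1. The labels spell the circular RNA in more than one way, taken here as the same RNA. The 10 genes, the lists and the alternatives were chosen with earlier results of these data known. Genes named are the 10, every list gene past the threshold and up to 4 tested genes of a list with the smallest p; neighbours, marker genes, further list genes given as levels, and IL18R1 were chosen after their values were seen. Positions are from GENCODE 29 (GRCh38), not the build of the alignment, and 99.9% of the table's transcript identifiers were found there. List genes joined with others on 1 row (8) were not counted. On simulated data with the spread of 10295 loci, 48% of 1.5-fold and 78% of 2-fold changes were called, with 14 unchanged loci called. For 3-fold and 4-fold changes it was 78% and 80%. The 200 changed loci were drawn only from those with a mean log2(FPKM + 1) above 2, and folds were set on that scale. These rates thus do not cover lower genes such as BIRC3 and CXCL1.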

Additional observations from a re-analysis of the deposited data

How the results depend on the processing

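Of the 10 genes 4 changed as reported. The number was 3 without the filter, with quantile normalization, and without circ_0005358 replicates 2 or 3 or vector replicate 1. It was 2 at FPKM of at least 5, where BIRC3 and CXCL1 were not tested, at an adjusted p threshold of 0.01, and without vector replicate 3 and circ_0005358 replicate 2 together. Leaving out 1 library gave 2 to 4. IL32 and BIRC3 passed 0.05 under each alternative that tested them (adjusted p up to 0.0409 and 0.0411). Over all loci 1171 changed, 591 without the filter, 416 at the 0.01 threshold, 198 without both libraries and 485 to 761 without 1 library. The cause of these differences was not tested.

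Same-numbered libraries deviated together by correlations of 0.064, 0.048 and 0.078, each higher than with any other number, which is a hint from the data and below the 0.1 set for pairing. With a replicate block 259 loci and 2 of the 10 genes, IL32 and BIRC3, changed, and the IL6 and LIF calls were lost (adjusted p = 0.0616 and 0.0652). Without 1 library the log2 fold change of NFKBIA ran from -0.12 to 0.05 and that of RELA from -0.19 to 0.06. The sign of NFKBIA turned without circ_0005358 replicate 1 (0.05) and without vector replicate 3 (0.01), and that of RELA without circ_0005358 replicate 1 (0.06) and without vector replicate 2 (0.01). None of these passed a test.

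Without vector replicate 3 and circ_0005358 replicate 2 the IL6 and LIF calls were also lost (adjusted p = 0.0884 and 0.0746). Library size and the lack of counts limit CXCL8, CCL2 and IL1A, for which no counting interval was drawn.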
